A study of Homo sapiens with 4 samples.

Results

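Solute carriers are membrane proteins that move amino acids, sugars, ions, metals, nucleosides and vitamins across membranes, most of them by facilitated diffusion or by coupling the solute to a sodium or proton gradient. In gut epithelium, carriers of the apical membrane take up nutrients from the lumen and basolateral ones pass them on to the blood, while members of the SLC25 family shuttle metabolites across the inner mitochondrial membrane. The genes described here are those of the HG-U95Av2 array annotation whose symbol begins with SLC followed by a digit, leaving aside SLC2A1, SLC2A3, SLC3A2, SLC7A5 and SLC7A11. There were 144 such genes among the 8225 with a single symbol, 18 of them in SLC25 and 126 outside it. Of these, 54 (37.5%) reached a log2 level of 5 on at least 1 array and were analysed, against 3588 of all genes (43.6%). The analysed members were 10 mitochondrial SLC25 carriers and 44 genes of other families. SLC67A1-AS, an antisense RNA named for its neighbour, came in by its symbol and is no carrier. SLC26A10P, annotated as a transcribed pseudogene, is also counted among the 144 and stayed below 5.

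The cells were LS180, a line established from a human colon carcinoma, with a Tet-off system for RBM35A, an RNA-binding splicing regulator of epithelium now called ESRP1. RBM35A+ cells had spent 6 days or more without doxycycline, and RBM35A- cells, described as parental, were kept on doxycycline; whether the latter carried the construct is not stated in the labels. Total RNA and polysomal RNA, the transcripts that sediment with several ribosomes in a sucrose gradient, were each hybridized from both states, giving 4 groups of 1 array and no replicates. The labels list the polysomal samples as polyA RNA and the others as total RNA. RBM35A state changed together with doxycycline, and with the cells themselves if the parental ones lacked the construct. These cannot be told apart, and the same holds for RNA fraction and preparation. Of 12 gut epithelium markers 11 reached 5, with KRT20 the exception. Of 6 blood markers 1 did (HBB, 5.89 and 5.92 in total RNA), as did 1 of 6 fibroblast and endothelial markers on the array (COL1A1, up to 5.58 in polysomal RNA). None of the 3 liver markers or the 1 kidney marker on the array reached it (0 of 4).

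All levels are log2 probe set values, and levels of different genes are not compared because each probe set has its own response. Values under 5 were raised to 5, so that a difference with such a value is a bound. With 1 array per group there is no replicate error, and within a fraction the disagreement between probe sets of the same gene was taken as the measure of spread. Over the 339 genes with at least 2 measured probe sets, 1 probe set's difference between RBM35A states had an SD of 0.188 in total RNA and 0.195 in polysomal RNA. For polysomal minus total RNA this SD was 0.732. It covers probes, not cultures.

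**Figure D1:**
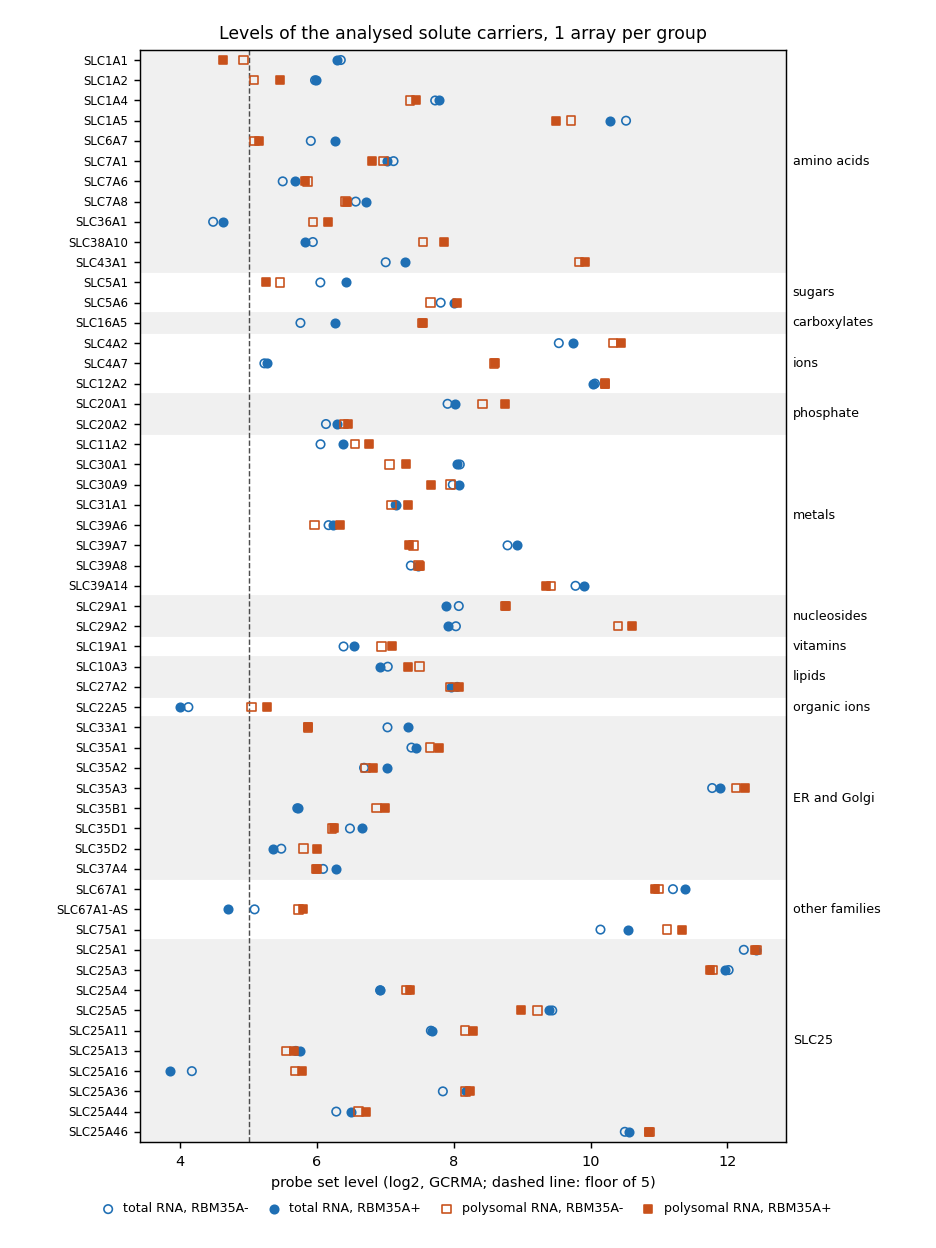
Log2 probe set level of each of the 54 analysed solute carriers on the 4 arrays, grouped by transported solute; circles are total RNA, squares polysomal RNA, open symbols RBM35A- and filled symbols RBM35A+ cells, and values under the floor of 5 are drawn as deposited. The open and filled symbols of a fraction lie close together for most genes, while circles and squares separate widely for SLC4A7, SLC43A1 and SLC29A2.

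The share of carriers that reached the floor is given here by class; classes follow the family number, so the vitamin carrier SLC5A6 counts with the sugar carriers of its family. All 8 carriers of the endoplasmic reticulum and Golgi families did, as did 8 of 12 metal transporters and 10 of 18 SLC25 carriers. Among amino acid, peptide and amine transporters 11 of 32 reached it, among sugar and polyol transporters 2 of 10, and among ion and bicarbonate transporters 3 of 21, the pseudogene SLC26A10P included. The counts were 2 of 3 for phosphate, 2 of 4 for nucleosides, 2 of 4 for lipids and bile acids, 1 of 5 for carboxylates, 1 of 5 for vitamins, choline and heme, 1 of 7 for organic ions and 3 of 7 for other families. None of the 8 members of SLC17 and SLC18 did (0 of 8), which include the vesicular glutamate transporter SLC17A7 and the vesicular amine and acetylcholine transporters SLC18A1, SLC18A2 and SLC18A3.

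Carriers of the intestinal apical membrane stood on both sides of the floor, and those named here were chosen after their values were seen, from no fixed list. SLC5A1, SLC11A2 and SLC1A1 reached it, with highest values of 6.43, 6.75 and 6.35, and others were among the 90 members below 5 on every array. These were the peptide transporter SLC15A1, the chloride and bicarbonate exchanger SLC26A3, the sodium and proton exchanger SLC9A3, the ileal bile acid transporter SLC10A2 and the fructose transporter SLC2A5. SLC2A5 reached at most 2.64 and SLC15A1 2.27, and SLC26A3, SLC9A3 and SLC10A2 each read 2.22 on every array. The members just above the threshold were SLC22A5 (highest value 5.27) and SLC25A13 (5.75), and those just below it were SLC25A12 (4.89) and SLC25A17 (4.81).

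In total RNA no member differed by 1.5-fold between RBM35A+ and RBM35A- cells (0 of 51 measured in each direction), where 1.54% of 3320 genes were higher and 0.663% lower by that much. Counting differences of 25% or more (the higher value over the lower one), 7 members were higher (13.7%) and 0 lower, against 7.2% and 6.69% of all genes. The median member lay at 0.09 and 36 of 51 lay above 0 (70.6%), while the median of all genes was 0.00 and 50.3% of them lay above 0. With each array centred on its median, 35 of 51 members (68.6%) and 48.9% of all genes lay above 0. Outside SLC25 the median of 42 members was 0.11, and for 9 SLC25 carriers it was 0.05. The arrays read bulk RNA, so that fewer cells with a transcript and less of it per cell cannot be told apart.

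SLC16A5, a member of the monocarboxylate transporter family, was furthest up in total RNA. It read 5.76 in RBM35A- and 6.26 in RBM35A+ cells, a difference of 0.51, but 7.54 and 7.55 in polysomal RNA. Its probe set belongs to a type that shares sequence with another set. The other probe set that reached 5 did so in polysomal RNA only, with 5.41 and 5.43 there, so the total RNA difference rests on 1 probe set. SLC75A1, formerly MFSD10, read 10.14 and 10.54 in total RNA (difference 0.40) and 11.12 and 11.34 in polysomal RNA (0.22), higher in RBM35A+ cells in both.

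SLC5A1, the sodium-coupled glucose transporter of the intestinal brush border, read 6.05 and 6.43 in total RNA. In polysomal RNA it read 5.46 and 5.25, so the RBM35A+ array was the higher one in total and the lower one in polysomal RNA. SLC6A7, the proline transporter known from brain, read 5.91 and 6.27 in total RNA and 5.09 and 5.15 in polysomal RNA, close to the floor. SLC11A2, the iron importer of the gut, read 6.05 and 6.38, and then 6.56 and 6.75 in polysomal RNA. SLC35A2, which brings UDP-galactose into the Golgi, read 6.69 and 7.03 through a probe set that may cross-hybridize, and 6.71 and 6.82 in polysomal RNA. The 7th was the mitochondrial pyrimidine nucleotide carrier SLC25A36, with 7.84 and 8.18 in total and 8.17 and 8.24 in polysomal RNA. Except for SLC5A1, each of these had both arrays of the polysomal pair within 0.22 of each other and in the same order as in total RNA. That the polysomal differences were smaller largely follows from picking these members by total RNA.

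Outside SLC25, the next highest were the acetyl-CoA transporter of the endoplasmic reticulum SLC33A1 (0.30), the large neutral amino acid transporter SLC43A1 (0.29) and the chloride and bicarbonate exchanger SLC4A2 (0.21). The lowest member in total RNA was SLC1A5, the main glutamine importer of proliferating cells, at -0.24 (10.52 to 10.28). It was followed by the nucleoside transporters SLC29A1 (-0.19) and SLC29A2 (-0.12), by SLC35D2 (-0.12), SLC38A10 (-0.12) and SLC10A3 (-0.11), and by SLC27A2 and SLC7A1 (both -0.09). SLC1A5 lay below 0 by more than 1 probe set SD and SLC29A1 by about that much.

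In polysomal RNA again no member differed by 1.5-fold (0 of 53 in each direction), against 0.767% of 3391 genes higher and 1.3% lower. At 25% or more 4 members were higher (7.55%) and 0 lower, against 7.46% and 6.43% of all genes. The median member lay at 0.07 and that of all genes at 0.02, with 38 of 53 members (71.7%) and 56.4% of all genes above 0. Once each array was centred on its median, 33 of 53 members (62.3%) and 46.1% of all genes lay above 0. The 5′ control probe sets of the polysomal arrays were lower in RBM35A+ cells, by -0.86 for beta-actin and -0.79 for GAPDH. The middle ones were also lower, by -0.44 and -0.33, each past 25%, while the 3′ ones differed by -0.02 and -0.13. The part of this difference in the carriers' values was not tested.

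The 4 members past 25% in polysomal RNA carry different solutes. SLC1A2, the glutamate transporter best known from astrocytes, read 5.08 and 5.46, near the floor and through a probe set that may cross-hybridize, against 5.97 and 5.98 in total RNA. SLC5A6, which takes up biotin and pantothenate with sodium, read 7.66 and 8.04 in polysomal and 7.81 and 8.01 in total RNA. The zinc importer SLC39A6 read 5.96 and 6.33 (total RNA 6.17 and 6.23), and the sodium-coupled phosphate importer SLC20A1 read 8.42 and 8.75 (total RNA 7.91 and 8.02). In each of the 4 the total RNA difference was smaller than the polysomal one. This follows from picking them by polysomal RNA, as no member passed 25% in both fractions, and is no separate result.

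Below these came SLC38A10 (0.31), the plasma membrane zinc exporter SLC30A1 (0.25), the copper importer SLC31A1 (0.25) and the carnitine transporter SLC22A5 (0.23, from 5.04 and 5.27). On the lower side outside SLC25 stood SLC30A9, another zinc transporter, at -0.29 (7.95 to 7.66), then SLC1A5 (-0.22), SLC5A1 (-0.21), the cationic amino acid transporter SLC7A1 (-0.18), SLC10A3 (-0.17), the zinc carriers SLC39A7 and SLC39A14 (both -0.06) and SLC67A1 (-0.06). Of the 8 metal transporters 5 were above 0 and 3 below, with a median of 0.11.

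**Figure D2:**
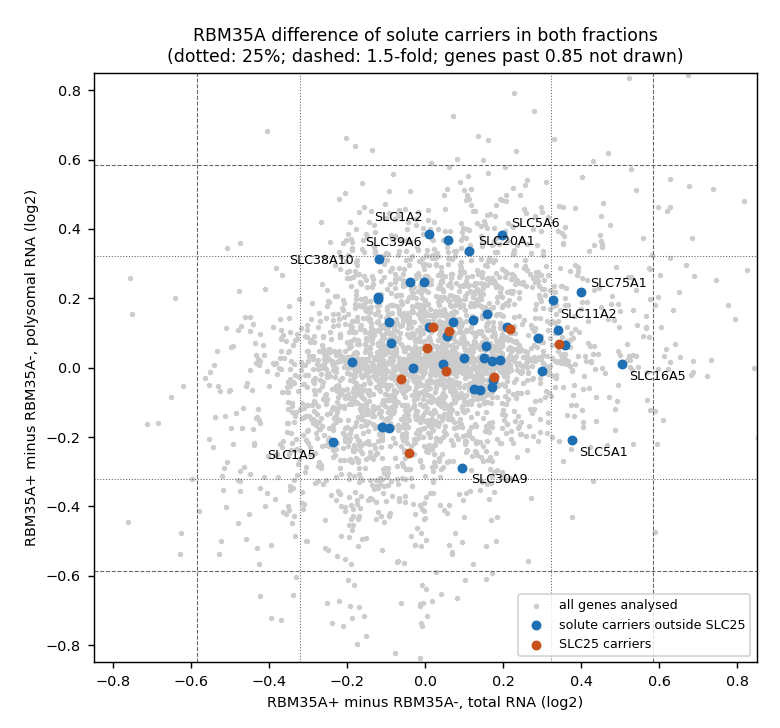
RBM35A+ minus RBM35A- difference (log2) in total RNA (x axis) and polysomal RNA (y axis) for the 50 solute carriers measured in both fractions, over all genes analysed in grey. The members lie within the dashed 1.5-fold lines, and those past 25% in one fraction are not past it in the other.

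No member passed 25% in both fractions (0 of 50), where 1.22% of 3123 genes were higher and 1.38% lower in both. The same sign was seen in 33 of 50 members (66.0%), with 27 higher and 6 lower in both, and in 59.2% of all genes. Across these 50 members, which share the 4 arrays, the differences of the fractions correlated with r = 0.04, and over all genes with r = 0.29. Ranked by the smaller of both differences, the members highest in both were SLC75A1 (0.22), SLC5A6 (0.20), SLC11A2 (0.20), the folate carrier SLC19A1 (0.15), the UDP-N-acetylglucosamine transporter SLC35A3 (0.12), SLC4A2 (0.12) and SLC20A1 (0.11), and among these first 8 SLC1A5 was the one low in both (0.22 in size). The other members low in both were SLC10A3, SLC7A1, SLC25A3, SLC25A5 and SLC12A2. In an additive fit of state and fraction with limma, 0 of 54 members were called at an adjusted p under 0.05, as were 0% of 3588 genes. At an unadjusted p under 0.05 there were 3 members (5.56%), namely SLC75A1, SLC5A6 and SLC11A2, and 10.3% of all genes. The smallest limma adjusted p of a member was 0.442, shared by SLC75A1 (mean difference 0.31, SE 0.107) and SLC5A6 (0.29, SE 0.107). Both were higher in RBM35A+ cells in both pairs. With 1 residual degree of freedom this fit measures whether a difference was alike in both fractions, not whether it would recur.

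The RBM35A difference was also compared between fractions by subtracting the total from the polysomal one. No member passed 1.5-fold on this scale (0 of 50 in each direction), against 1.02% of 3123 genes above and 2.4% below. SLC5A1 lay lowest at -0.58, short of 1.5-fold, and passed it at -0.60 once each array was centred on its median. Here the probe set SD was 0.239. Outside SLC25, after it came SLC16A5 (-0.49), SLC30A9 (-0.38), SLC33A1 (-0.31), SLC6A7 (-0.29), SLC35A2 (-0.23), SLC67A1 (-0.23) and the amino acid exchanger SLC7A6 (-0.21). At the other end were SLC38A10 (0.43), SLC1A2 (0.38), SLC35D2 (0.33), SLC29A2 (0.32), SLC39A6 (0.31), SLC30A1 (0.28), SLC31A1 (0.25) and the fatty acid carrier and acyl-CoA synthetase SLC27A2 (0.22). The median of 50 members was -0.06 and that of all genes 0.00.

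Polysomal and total RNA differed far more than the RBM35A states did. In both states 6 members were at least 2-fold higher in polysomal than in total RNA (11.1% of 54) and 3 at least 2-fold lower (5.56%), against 11.9% and 6.3% of 3490 genes. With a floor of 4 or none, SLC25A16 and SLC36A1, both below 5 in total RNA, brought the first count to 8. The arrays of each fraction had been normalized apart, and the median member stood at 0.16 and the median gene at 0.11. Centring the arrays removed a shift of 0.199, after which 25 members lay above and 29 below 0, in place of 32 and 22. Of all genes 56.0% lay above 0 before centring and 44.99% after it, against 59.3% and 46.3% of the members. Values of both states agreed closely, for the members much as for all genes. The correlation over the 54 members was 0.97 and over all genes 0.96. The median gap between the states was 0.18 and 0.17.

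SLC4A7, an electroneutral sodium bicarbonate cotransporter, showed the largest difference of any member. It read 5.23 and 5.28 in total RNA, just above the floor, and 8.59 and 8.60 in polysomal RNA, which is 10.3-fold higher in RBM35A- and 10.0-fold in RBM35A+ cells. SLC43A1 read 7.004 and 7.292 in total and 9.83 and 9.91 in polysomal RNA, 7.08-fold and 6.15-fold higher. The equilibrative nucleoside transporter SLC29A2 read 8.03 and 7.91 in total and 10.40 and 10.60 in polysomal RNA, through a probe set that may cross-hybridize, which is 5.17-fold and 6.45-fold higher. Its relative SLC29A1 read 8.07 and 7.88 in total and 8.75 and 8.76 in polysomal RNA, 1.59-fold and 1.84-fold higher.

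SLC38A10, an amino acid transporter of the SLC38 family, read 5.94 and 5.82 in total RNA and 7.55 and 7.86 in polysomal RNA, 3.05-fold and 4.12-fold higher. For SLC16A5, described above, the difference was 3.43-fold and 2.44-fold, but 0.41 and 0.43 (log2, lower bounds) at its other measured probe set. SLC35B1, a nucleotide transporter of the endoplasmic reticulum, read 5.71 and 5.72 in total and 6.87 and 6.99 in polysomal RNA. The lysosomal amino acid exporter SLC36A1 was below the floor in total RNA and read 5.94 and 6.16 in polysomal RNA, at least 1.92-fold and 2.23-fold higher. SLC75A1 was 1.97-fold and 1.73-fold higher. These 8 members (SLC4A7, SLC43A1, SLC29A2, SLC38A10, SLC16A5, SLC35B1, SLC36A1 and SLC75A1) were picked as the highest outside SLC25 in this comparison. That their polysomal values lay above both total RNA values largely follows from this choice and is no separate result.

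Lower in polysomal RNA by 2-fold or more in both states were SLC39A7, SLC33A1 and SLC1A1. SLC39A7, which releases zinc from the endoplasmic reticulum and Golgi, read 8.79 and 8.93 in total and 7.41 and 7.35 in polysomal RNA, 2.59-fold and 2.99-fold lower. SLC33A1 went from 7.03 and 7.33 to 5.87 and 5.86, 2.24-fold and 2.77-fold lower. The glutamate transporter SLC1A1 read 6.35 and 6.29 in total RNA and was below the floor on both polysomal arrays, at least 2.54-fold and 2.44-fold lower.

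The zinc exporter SLC30A1 (8.09 and 8.05 to 7.06 and 7.31), SLC6A7, SLC5A1, SLC1A2 and SLC1A5 (10.52 and 10.28 to 9.71 and 9.49) followed, at mean differences of -0.88, -0.97, -0.88, -0.71 and -0.80. These are close to the probe set SD of 0.732 in this comparison, and SLC1A2 lay within it. By class, 7 of 11 amino acid transporters were below 0, from -1.32 for SLC1A1 to 2.72 for SLC43A1, with a median of -0.21. Of the metal transporters 5 of 8 were below 0 (median -0.14), and the 8 endoplasmic reticulum and Golgi carriers were split evenly (median 0.10). The 3 ion transporters and both phosphate and both nucleoside transporters were all above 0. Centring turned the sign of values between 0 and 0.199.

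**Figure D3:**
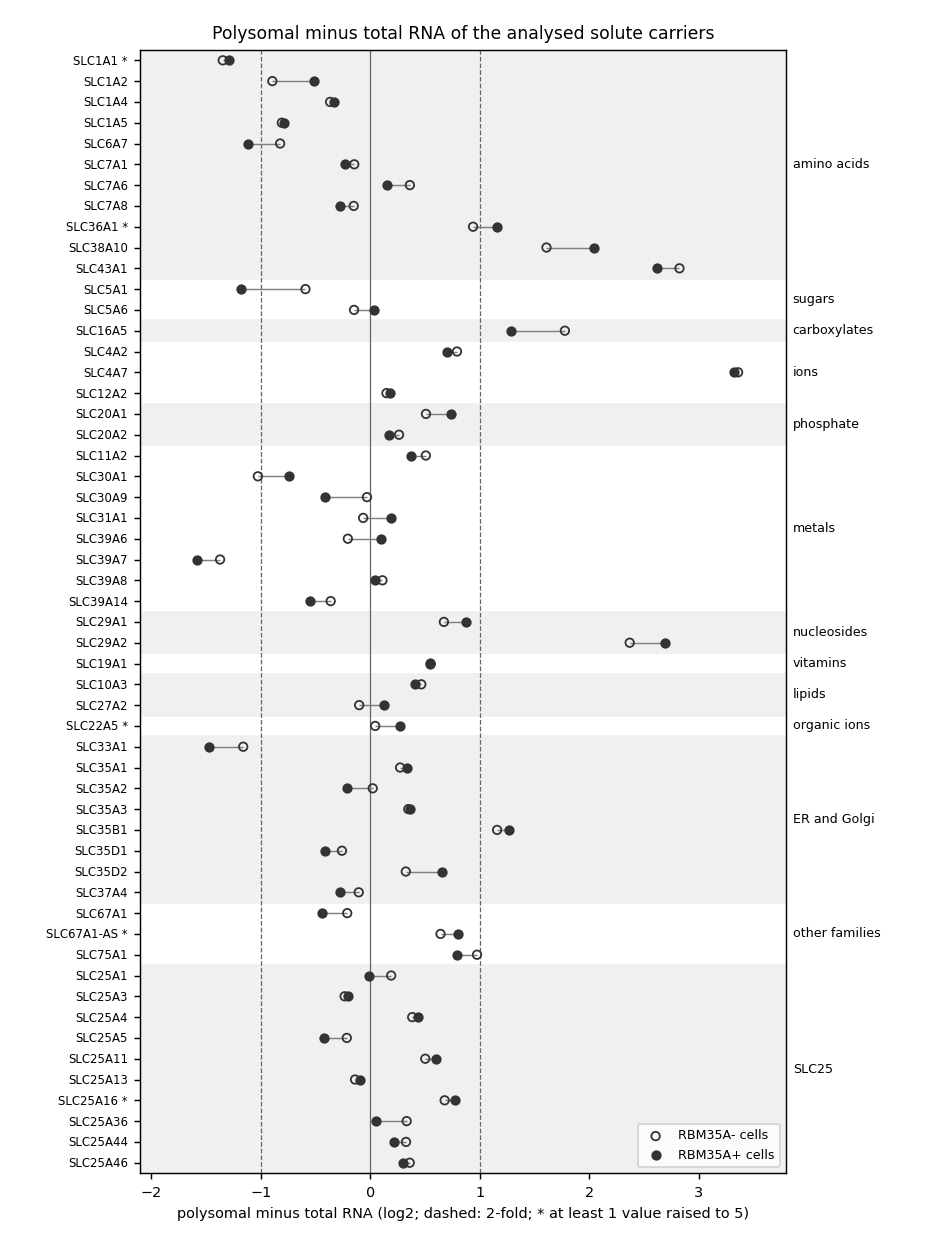
Polysomal minus total RNA difference (log2) of each analysed solute carrier in RBM35A- cells (open) and RBM35A+ cells (filled), joined by a line; an asterisk marks genes with a value raised to 5, whose difference is a bound. The states lie close together for most genes, SLC4A7 is furthest right, and SLC39A7 furthest left.

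Loss of 5′ signal stood beside this comparison. Averaged over both states, the polysomal minus total difference of beta-actin was -4.91 at the 5′, -2.65 at the middle and -0.29 at the 3′ control probe set. That of GAPDH was -2.21, -1.31 and -0.15. Where each carrier's probe set lies along its transcript was not used, so its part in the low polysomal values of SLC39A7, SLC33A1 or SLC1A1 was not tested. Only 3 members had a further probe set that reached 5. Of the members, 6 were represented by probe sets with a suffix letter (g, r or s), treated here as shared sequence by that letter alone.

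Of the 10 mitochondrial carriers 9 were measured in total RNA. At differences of 25% or more 1 of these was higher (SLC25A36) and 0 lower, against 7.2% and 6.69% of all genes. Outside SLC25 6 of 42 were higher and 0 lower. In total RNA 7 of 9 SLC25 carriers were above 0, from -0.06 for the phosphate carrier SLC25A3 to 0.34 for SLC25A36. The branched-chain amino acid carrier SLC25A44 (0.22) came second, followed by the citrate carrier SLC25A1 (0.18) and SLC25A13, which exchanges aspartate for glutamate (0.06). Of these, SLC25A1 was read by 3 probe sets, which gave 0.18, 0.16 and 0.13, whereas the second probe set of SLC25A13 gave -0.16. The SLC25A1 set that gave 0.18 is of the type that shares sequence with another set, so the 3 may not be independent readings. Next came SLC25A46 (0.05), a member of the outer membrane, the oxoglutarate carrier SLC25A11 (0.02) and, at 0.00, the ADP/ATP translocase SLC25A4.

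In polysomal RNA 6 of the 10 were above 0, from -0.25 to 0.12. SLC25A5, another ADP/ATP translocase, was lowest and read 9.22 and 8.98 (total RNA 9.44 and 9.40). Its probe set may cross-hybridize with near-identical translocases, so its value is uncertain as to gene. SLC25A1 had -0.03, -0.04 and -0.12 at its 3 probe sets, so all 3 were higher in total and lower in polysomal RNA of RBM35A+ cells, each by less than 1 probe set SD. Highest were SLC25A11 (0.12), SLC25A44 (0.11), SLC25A13 (0.11) and SLC25A16 (0.10), and SLC25A36 stood at 0.07.

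Between fractions, the mean differences of the SLC25 carriers at their representing probe sets ran from -0.32 for SLC25A5 to 0.55 for SLC25A11, within the probe set SD of 0.732, apart from SLC25A16. The latter was below the floor in total RNA and read 5.68 and 5.78 in polysomal RNA, a difference of at least 0.73 that came to 1.64 with a floor of 4 and 1.72 with none. SLC25A11 read 7.66 and 7.68 in total and 8.17 and 8.28 in polysomal RNA, SLC25A4 6.92 and 6.93 against 7.31 and 7.36, and SLC25A46 10.50 and 10.55 against 10.86 and 10.85. SLC25A3 was slightly lower in polysomal RNA, at 12.02 and 11.96 against 11.78 and 11.75. For SLC25A13 the mean was -0.12, but its second probe set gave -0.85 (a bound) in RBM35A- and -0.53 in RBM35A+ cells. The members outside SLC25, a larger group of 44, ran from -1.48 to 3.34.

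SLC67A1, formerly SLC22A18, and the antisense RNA SLC67A1-AS are neighbours on the genome. SLC67A1 read 11.20 and 11.38 in total and 10.99 and 10.94 in polysomal RNA. SLC67A1-AS was at 5.09 in total RNA of RBM35A- cells, below the floor in RBM35A+ cells, and at 5.73 and 5.80 in polysomal RNA. SLC12A2, the sodium, potassium and chloride cotransporter of basolateral membranes, read 10.06 and 10.03 in total and 10.21 and 10.21 in polysomal RNA, so that its states differed by at most 0.03.

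Of 30 partner genes on a list of pumps, scaffolds, porins and import factors that carriers work with, 17 were on the array and 13 were analysed. None of them differed by 1.5-fold in total RNA (0 of 13), against 1.54% of all genes higher and 0.663% lower. In polysomal RNA 1 of 13 was lower by that much, against 1.3% of all genes. This was BSG, the chaperone that brings monocarboxylate transporters to the surface. It read 12.81 and 12.61 in total RNA and 11.62 and 10.94 in polysomal RNA, a difference of -0.69 in the latter. BSG was also the 1 partner at least 2-fold lower in polysomal than in total RNA, against 6.3% of all genes. The 5′ controls differed by -0.86 and -0.79 between the polysomal arrays, and the middle ones by -0.44 and -0.33. The part of this in the BSG value was not tested. The sodium pump subunit ATP1B1 read 15.41, 15.37, 14.48 and 14.50, with differences between states of -0.04 and 0.02. The porins VDAC1, VDAC2 and VDAC3 had polysomal differences of -0.30, 0.10 and 0.26, and the import receptor TOMM70 0.30. Medians of the 13 were -0.04 in total and 0.02 in polysomal RNA.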

How the data were processed

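The deposited values are log2 probe set levels that the authors computed by GCRMA (named in the submitters' processing notes, version not given in the sources used here). From the values, the arrays of each fraction were quantile normalized together and apart from the other fraction (sorted values differed by at most 6.61e-06 within a fraction and by up to 0.227 between them). Per the labels, 10 µg of RNA per sample was labelled. Of 12626 probe sets, 10943 had 1 symbol in the array annotation, 546 several and 1070 none, and 67 were controls; all 144 members were found by gene ID in a RefSeq table (GRCh38.p14), used for names only. Each gene was represented by the probe set whose 4-array mean was highest, and values under 5 were raised to 5. A difference counted as measured where at least 1 of its 2 arrays reached 5. State and fraction were fitted with limma 3.58.1 in R 4.3.3 over all genes, with Benjamini-Hochberg adjustment, after a test on simulated data. Named genes were the 8 highest and lowest outside SLC25 and the 4 in SLC25 per comparison, those past 1.5-fold, and the first 8 alike in both fractions; counts at 25% were given as well. Members, classes and lists were chosen with earlier results of these data known. Alternatives were other floors (4, 6, none), the mean of probe sets, no probe sets of shared sequence, and centred arrays. Shared sequence was taken from any suffix letter in the probe set name, such as g, r or s, whatever the letter stands for.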

Additional observations from a re-analysis of the deposited data

Results flagged for a closer look

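SLC5A1 moved in opposite directions in the fractions, higher in total RNA and lower in polysomal RNA of RBM35A+ cells, with a difference of differences of -0.58. Each change passed 1 probe set SD, the polysomal one narrowly (-0.21 against 0.195). Its polysomal values (5.46 and 5.25) lay near the floor, and with a floor of 6 this could not be measured. The 5′ controls were also lower in polysomal RNA of RBM35A+ cells (-0.86 and -0.79), and their part in the SLC5A1 value was not tested. With 1 array per group the SLC5A1 pattern itself was not tested. Probe sets annotated to several genes, and so left out above, also gave signal for solute carriers. The set shared by SLC4A5 and DCTN1 reached 7.77, with 0.48 in total and 0.00 in polysomal RNA. The set shared by MRPL12 and the mitochondrial dicarboxylate carrier SLC25A10 reached 11.24, with differences of -0.46 and -0.10. The set shared by SLC6A8 and its pseudogenes reached 5.31, that of SLC35E2A and SLC35E2B 7.96, and that of SLC35F6 and CENPA 8.10. Which gene of each set gave the signal cannot be told apart.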

How the results depend on the processing

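No member passed 1.5-fold in total or polysomal RNA, and limma called none (0 at adjusted p under 0.05), under any of the 6 alternatives. At differences of 25% or more the counts were 7 and 4 higher; they were 5 to 7 and 3 to 4 over the alternatives, which for this size were chosen after seeing the data. With a floor of 4, 1 member was lower by that much in total RNA (SLC67A1-AS, -0.39), and with no floor 2 were (SLC25A16, -0.32, as well). Centring put 1 member, SLC5A1, past 1.5-fold (-0.60) in the difference of differences. No member past 2-fold in polysomal minus total RNA changed sign where it could be measured. Among single values, SLC16A5 fell to 0.26 in total RNA with a floor of 6 and to 0.42 (from 1.53) in polysomal minus total RNA without probe sets of shared sequence, where SLC29A2, SLC1A2, SLC35A2 and SLC25A5 could not be measured. In polysomal minus total RNA a floor of 6 lowered SLC4A7 to 2.60 and brought SLC1A1 to -0.32, while SLC22A5 went from 0.16 to 1.10 and SLC25A16 from 0.73 to 1.64 or 1.72 with a floor of 4 or none, and the count at 2-fold higher in both states from 6 to 8. Symbols of the annotation itself gave the same 144 members. Levels near 5 limit SLC6A7, SLC1A2, SLC5A1 and SLC4A7. A fit with replicates as a block could not be made because each group had 1 array and the labels give no replicate numbers; the limma fit compared the states within fractions.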
